A study of Mus musculus with 9 samples.

Results

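Respiratory complex I, the NADH:ubiquinone oxidoreductase of the inner mitochondrial membrane, was followed through the transcripts of its nuclear-encoded subunits. Members were all genes whose symbol is Nduf, then a, b, c, s or v, then a number, together with Ndufab1. This rule, which uses names and no measured value, found 38 of the 56805 genes in the table. All 38 passed the filter on low values, which left 15279 genes for testing. RNA came from the tibialis anterior (TA) muscle of the left leg, which is built mainly of fast-twitch fibres, in male mice aged 13 months, with 1 library per mouse. The 3 genotypes, wild type (WT), Svil-KO and Svil-Mut, had 3 mice each, and no treatment is named for any of them. Svil encodes supervillin, which links actin and myosin to the membrane skeleton of muscle. The labels do not give the strain background or which part of Svil is altered in either altered genotype. Replicates are called by the numbers in their titles, 1, 3 and 4 in WT and Svil-KO and 1, 2 and 4 in Svil-Mut.

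Complex I takes electrons from NADH, passes them along a flavin and a chain of iron-sulfur clusters to ubiquinone, and pumps protons across the inner membrane. It is L-shaped. The peripheral arm in the matrix holds the NADH-oxidizing module and the ubiquinone-reducing module, and the membrane arm holds a proximal and a distal part. Subunits come from both genomes: the mitochondrial genome encodes the proton-pumping mt-Nd proteins of the membrane arm, and the nuclear genome encodes the catalytic core of the peripheral arm and the accessory subunits around it. In skeletal muscle the complex is most abundant in oxidative fibres, which are rich in mitochondria.

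The libraries held 36234428 to 48762188 reads, and p-values below measure the spread between these mice. Svil, the altered gene, had 8686, 9373 and 8407 normalized counts in the WT libraries, 7402, 6746 and 6656 in Svil-KO and 4615, 3939 and 4582 in Svil-Mut, so it was lower in every library of both altered genotypes. Normalized counts are reads divided by a library size factor. Markers of fast fibres dominated every library, with summed levels of 5899150 to 7446470 normalized counts over 10 genes, and those of slow and oxidative fibres summed to 43231 to 165434 over 10 genes. The 38 subunits took 1.43% to 1.60% of all reads in WT, 1.39% to 1.45% in Svil-KO and 1.18% to 1.36% in Svil-Mut, where each library was below each of the others. Since this is bulk tissue, fewer cells or fibres of a type and less RNA per fibre cannot be told apart. The libraries were not made to mark strand, so reads from an overlapping gene on the opposite strand cannot be told apart from a subunit's own.

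Promoter windows (250 bases before to 50 bases after the annotated start, RefSeq, GRCm38.p6) were matched by symbol for 34 of the 38 subunits. Ndufs1, Ndufb9 and Ndufa2 were among those not matched. Exact letters of sites bound by factors known for mitochondrial genes were searched on both strands. The letters ATGGCGGC, the core of the YY1 site, were in 6 of the 34 windows (17.6%) and in 2.61% of the windows of all 27025 genes. They are shown because they stood furthest above that share, each 5′ to 3′ on the gene's strand with the match in capitals.

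Ndufs7, chr10:80249467-80249492, plus strand: gaggccaagATGGCGGCgctggcggg
Ndufa9, chr6:126849096-126849121, minus strand: tgggagaagATGGCGGCcgccgtccg
Ndufs6, chr13:73328433-73328455, minus strand: accggcaagATGGCGGCggtgct
Ndufs4, chr13:114388045-114388065, minus strand: tacaggaagATGGCGGCggtc
Ndufb5, chr3:32737073-32737098, plus strand: ggtgtagccATGGCGGCcatgagcct
Ndufa7, chr17:33824465-33824490, plus strand: gtgtccatgATGGCGGCgatctggcg

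In 5 of the 6, all but Ndufa7, the ATG of the match is an annotated start codon of the subunit in GENCODE, so the same letters open its coding sequence. The letters GCGCATG, the first part of the NRF1 site (nuclear respiratory factor 1, an activator of respiratory genes), were in 5 windows (14.7%) and in 4.41% of all windows. They are shown on the strand that reads GCGCATG, which is the gene's own strand for Ndufb6, Ndufa11 and Ndufb8 and the opposite one for Ndufa6 and Ndufa8.

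Ndufb6, chr4:40279483-40279507: gagggctttGCGCATGagcagagcc
Ndufa11, chr17:56717693-56717717: ctgcactgcGCGCATGcgcgcacgc
Ndufa6, chr15:82354358-82354382: ctctgcaatGCGCATGctctaccgc
Ndufa8, chr2:36049330-36049354: gtaccatctGCGCATGcgtctccag
Ndufb8, chr19:44555421-44555445: cccgcttttGCGCATGtgcagagtg

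For 3 of the subunits described below, 100 bases before the start are printed on the gene's strand. The part is from -100 to -1 for Ndufs8 and Ndufb6 and from -151 to -52 for Ndufv1, counted from the gene's RefSeq start. Ndufv1 had the lowest log2 fold change in Svil-Mut, and Ndufs8 is of the catalytic core. Ndufb6 had an unadjusted p of 0.00345 in Svil-Mut against WT (adjusted p = 0.292, limma). In Svil-KO against WT it had the smallest p of the subunits, which was not under 0.05 (unadjusted p = 0.0587, adjusted p = 0.997, limma). Capitals mark CCAAT in Ndufs8 and GCGCATG in Ndufb6.

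Ndufv1, chr19:4012807-4012906, minus strand: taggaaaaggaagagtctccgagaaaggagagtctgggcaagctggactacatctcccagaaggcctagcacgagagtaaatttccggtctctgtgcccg
Ndufs8, chr19:3912775-3912874, minus strand: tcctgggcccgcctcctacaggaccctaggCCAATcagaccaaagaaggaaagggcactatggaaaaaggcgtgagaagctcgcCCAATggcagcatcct
Ndufb6, chr4:40279422-40279521, minus strand: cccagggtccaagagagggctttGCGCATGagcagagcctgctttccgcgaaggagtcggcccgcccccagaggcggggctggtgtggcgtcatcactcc

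Other letters searched were nearer to their share over all windows. CCGGAAG (the ETS family) was in 11.8% of the subunits' windows and 9.93% of all windows, AAGGTCA (the estrogen-related receptors) in 8.82% and 5.38%, CCAAT (nuclear factor Y) in 29.4% and 41.1%, and GGGGCGGGG (SP1) in 14.7% and 12.9%. CACGTG (the E-box) was in 5.88% and 8.09%, and TATAAA (the TATA box) in 11.8% and 15.7%. These matches are a description of the letters and were not measured as bound sites. Median GC content was 59.2% over 36 promoter windows of the subunits and 52.7% over 32851 promoter windows in all. The part of GC content in these shares was not tested. The subunits with the YY1 letters had log2 fold changes of -0.27 to -0.05 in Svil-Mut against WT and those with GCGCATG of -0.29 to -0.16, and the range over all 38 was -0.38 to -0.05. The 3 subunits with AAGGTCA were at -0.23 to -0.06, with a median of -0.07.

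Subunit levels were first compared within WT, per kilobase of the principal transcript. Ndufa4, once counted as a complex I subunit and since assigned to complex IV, was the highest at 61743 ± 3192 normalized counts per kilobase (SD, n = 3). Ndufs7, which carries the last iron-sulfur cluster before ubiquinone, followed at 42699 ± 2210, and Ndufb9, an accessory subunit of the distal membrane arm, at 32344 ± 2105. These 3 stood apart from each other and from the rest, with no overlap of libraries. At the other end were Ndufv3, an accessory subunit of the NADH-oxidizing module, at 5792 ± 364, and Ndufab1, the mitochondrial acyl carrier protein, at 5587 ± 481.

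The highest level was 11.1-fold the lowest, and the ratio of the 90th to the 10th percentile was 3.51. Most neighbours in this order were not separated: 31 of 37 neighbouring pairs had overlapping WT libraries. Spans were alike in the other genotypes, 11.2-fold in Svil-KO and 12.2-fold in Svil-Mut. Transcript length sets this order in part. With the longest annotated transcript in place of the principal one, Ndufs7 stayed second at 32925 per kilobase, but close to Ndufb9 at 32344. Ndufb2 was then the lowest at 988, followed by Ndufab1 at 2274, Ndufb8 at 2285 and Ndufv3 at 5792.

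**Figure D1:**
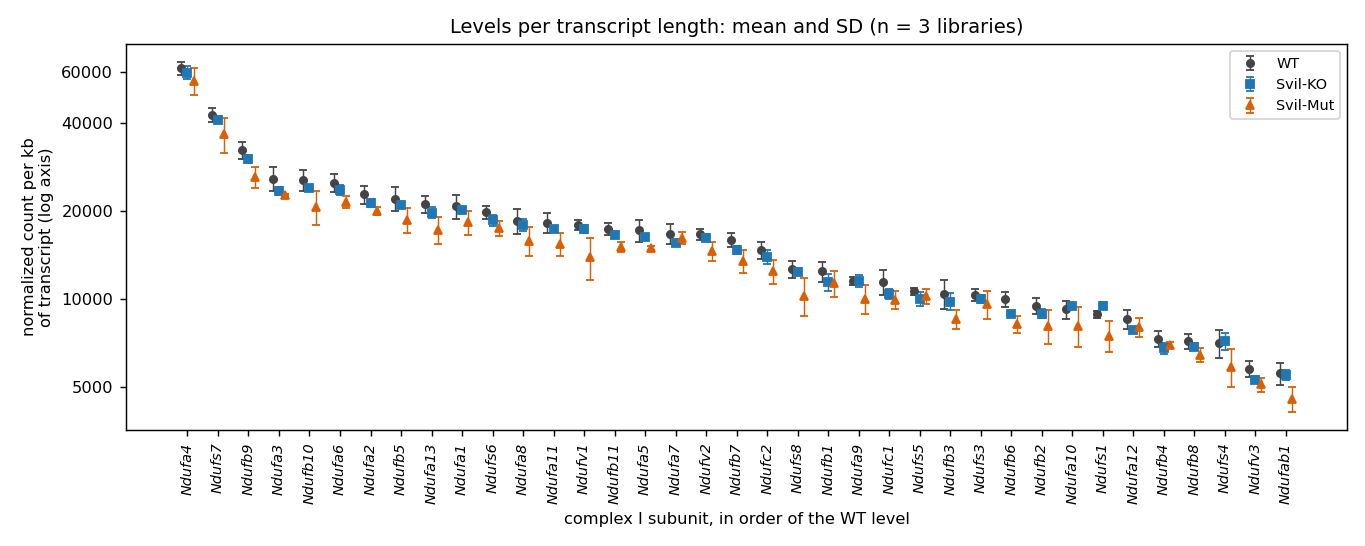
Normalized counts per kilobase of the principal transcript (log axis) for 37 of the 38 subunits, in order of the WT mean, as mean and SD of 3 libraries in WT (circles), Svil-KO (squares) and Svil-Mut (triangles). Ndufa4 and Ndufs7 stand above the rest, and the Svil-Mut means lie below the WT means in all 37.

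Between Svil-Mut and WT, the values of complex I subunits were lower throughout. All 38 had a log2 fold change below 0, on the log2(normalized count + 1) scale, against 50.7% of all tested genes. The median over the subunits was -0.21, from -0.38 for Ndufv1 to -0.05 for Ndufa7, while the median over all tested genes was -0.0046. No subunit passed at an adjusted p of 0.05 (limma, Benjamini-Hochberg over all tested genes, lowest adjusted p = 0.283), where 0.0393% of all tested genes passed. At an unadjusted p under 0.05, 27 of 38 were lower and none higher, against 5.32% of all tested genes lower. The 3 Svil-Mut libraries lay below the 3 WT libraries without overlap for 23 subunits, against 6.81% of all tested genes. By edgeR on recovered reads 0 subunits passed the adjusted threshold (0.0393% of all tested genes did) and 25 had an unadjusted p under 0.05 (9.62%). By DESeq2 2 passed, Ndufb9 and Ndufb6, where 1.13% of all tested genes passed, and 27 had an unadjusted p under 0.05 (10.7%).

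**Figure D2:**
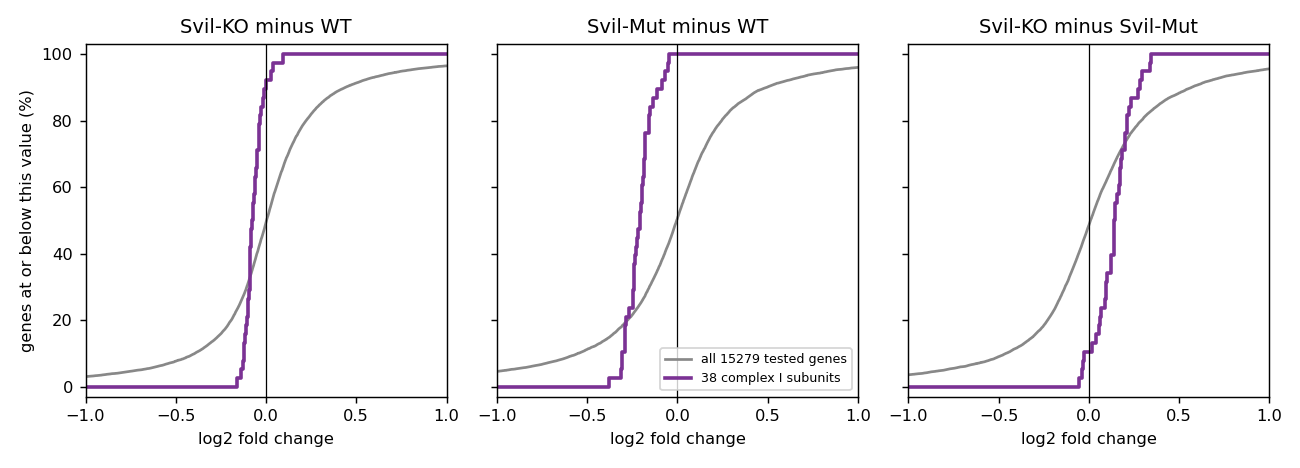
Cumulative share of genes (y axis, %) at or below each log2 fold change (x axis) for the 38 subunits (thick line) and all tested genes (thin line) in each comparison. In Svil-Mut minus WT the whole line of the subunits lies left of 0, with its median at -0.21.

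The libraries WT replicate 4 and Svil-Mut replicate 4 set much of this size. WT replicate 4 was the highest of all 9 libraries for 34 subunits, and Svil-Mut replicate 4 was the lowest for 33. As the median over the subunits of the log2 level minus the WT mean, the WT libraries were at -0.06, -0.04 and 0.11, the Svil-KO libraries at -0.05, -0.09 and -0.08, and the Svil-Mut libraries at -0.12, -0.18 and -0.35. Each Svil-Mut library was thus below all 6 others. Without WT replicate 4, 9 subunits had an unadjusted p under 0.05, and without Svil-Mut replicate 4, 13. Without both, a choice made after the values were seen, 3 did, the median was -0.10 and 35 of 38 were below 0 (50.5% of all tested genes). The share of all tested genes with an unadjusted p under 0.05 under these settings is not given here.

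**Figure D3:**
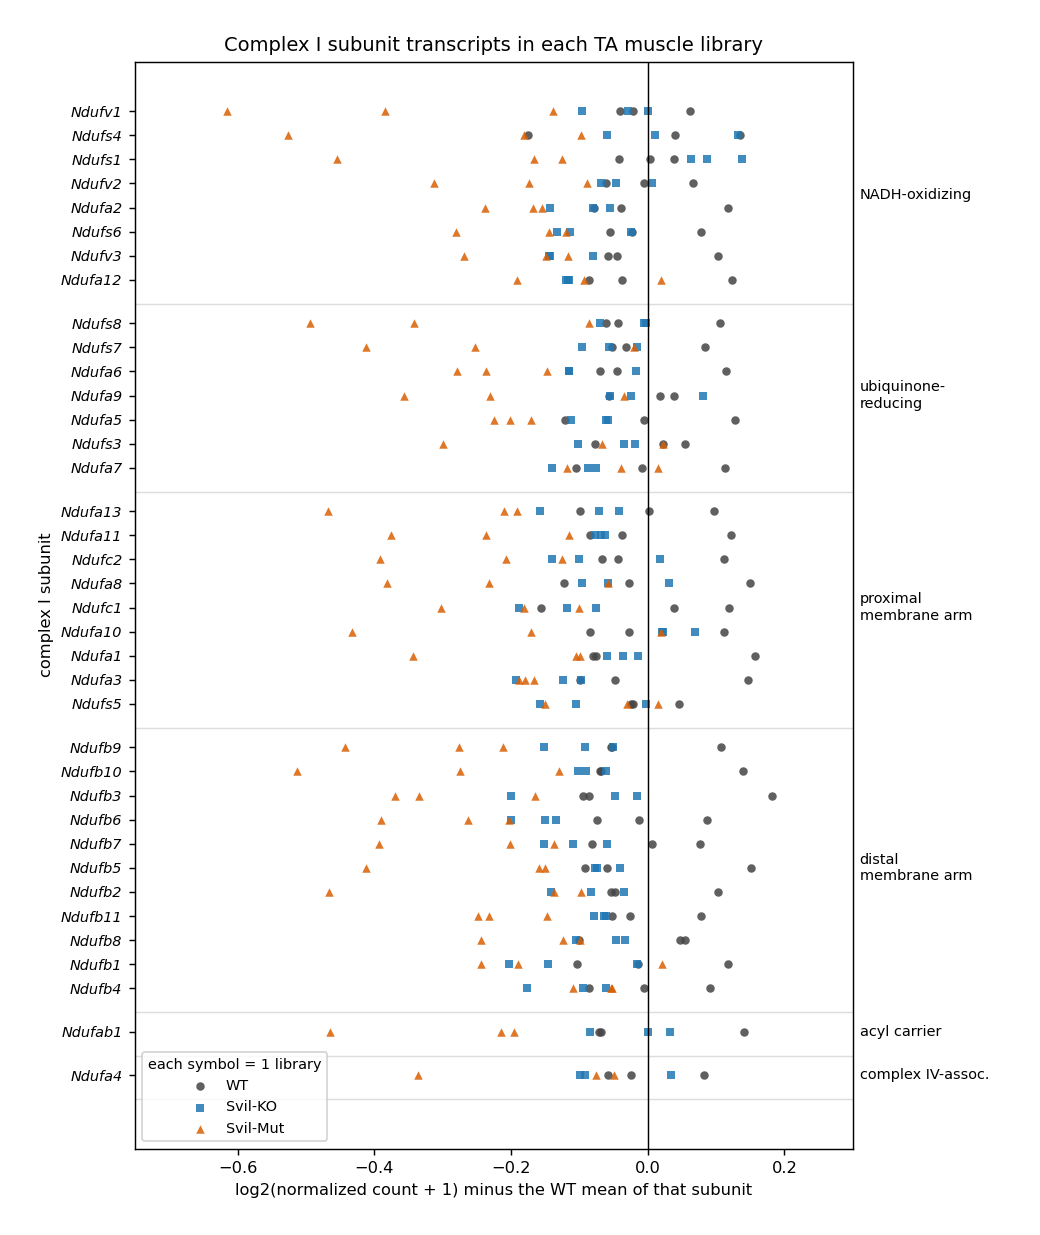
Each row is 1 of 37 subunits, grouped by module, and each symbol a library, placed by its log2(normalized count + 1) minus the WT mean of that subunit. The Svil-Mut triangles lie mostly left of 0, with replicate 4 the lowest of all 9 libraries in 32 of those drawn.

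Among the catalytic core subunits of the NADH-oxidizing module, Ndufv1, which binds NADH and the flavin, differed most (ENSMUSG00000037916.14, GRCm38 chromosome 19, 4007384 to 4012806, minus strand). It had 29320, 28917 and 31057 normalized counts in WT, 29169, 27829 and 29767 in Svil-KO and 27022, 22797 and 19424 in Svil-Mut. All 3 Svil-Mut libraries were below the other 6, and they spread over a wider range than either other genotype. The log2 fold change against WT was -0.38 ± 0.10 (SE, limma, unadjusted p = 0.00391, adjusted p = 0.30 by Benjamini-Hochberg). Ndufv2, which carries an iron-sulfur cluster beside the flavin, had 28134, 27082 and 29588 in WT, 28366, 26939 and 27366 in Svil-KO and 26548, 25046 and 22745 in Svil-Mut. Its Svil-Mut libraries too were below all others, by a smaller margin, at -0.19 ± 0.072 (adjusted p = 0.415, limma).

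Ndufs1 (ENSMUSG00000025968.16, chromosome 1, 63143596 to 63176833), the large subunit that carries several iron-sulfur clusters, was the subunit on which the 2 altered genotypes differed most. It had 23079, 22364 and 23629 normalized counts in WT, 25339, 24061 and 24455 in Svil-KO and 21111, 20512 and 16789 in Svil-Mut. The 3 genotypes did not overlap: Svil-KO was the highest, WT in the middle and Svil-Mut the lowest. Against WT, the log2 fold change was 0.10 ± 0.086 (SE) in Svil-KO and -0.25 ± 0.086 in Svil-Mut, with adjusted p of 0.997 and 0.394 (limma).

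In the ubiquinone-reducing module, Ndufs8, which holds a pair of iron-sulfur clusters on the path to ubiquinone, had 12054, 11904 and 13368 normalized counts in WT, 12382, 11834 and 12408 in Svil-KO and 11712, 9798 and 8822 in Svil-Mut. Svil-Mut replicate 1 was just under the lowest of the other genotypes and the other two were well under it, giving -0.31 ± 0.099 against WT (adjusted p = 0.355, limma). Ndufs7 had 31645, 31171 and 34280 in WT, 31080, 30252 and 31982 in Svil-KO and 31888, 27152 and 24287 in Svil-Mut. Here Svil-Mut replicate 1 was inside the WT range, so the genotypes overlapped, at -0.23 ± 0.093 (adjusted p = 0.443, limma).

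Ndufs3, another core subunit of the same module, had a smaller difference. It had 11022, 10279 and 11272 normalized counts in WT, 10712, 10105 and 10595 in Svil-KO and 11013, 10356 and 8818 in Svil-Mut. All 3 genotypes overlapped, with a log2 fold change in Svil-Mut of -0.11 ± 0.087 (SE, adjusted p = 0.713, limma). Without WT replicate 4 and Svil-Mut replicate 4 Ndufs3 was at 0.0048. Gm12251, a near-identical copy of Ndufs3 by sequence, had 12.7% of its level, so some reads of each may have been given to the other.

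Of the accessory subunits, Ndufb9 (ENSMUSG00000022354.4, chromosome 15, 58933756 to 58939488), which sits in the distal membrane arm, had the smallest p. It had 21907, 21922 and 24481 normalized counts in WT, 21945, 20467 and 21339 in Svil-KO and 19638, 18772 and 16718 in Svil-Mut. Every Svil-Mut library was below every other, at -0.31 ± 0.079 against WT (unadjusted p = 0.00240, adjusted p = 0.283, limma). DESeq2 gave an adjusted p of 0.0370, and over all 27 alternatives the adjusted p was between 0.0370 and 0.579. Ndufb6 of the same arm (ENSMUSG00000071014.10, chromosome 4, 40270591 to 40279421) had 6523, 6254 and 6991 in WT, 5999, 5730 and 5930 in Svil-KO and 5485, 5719 and 5024 in Svil-Mut. Its WT libraries were above all 6 others, and its Svil-Mut libraries were just below the Svil-KO ones, at -0.29 ± 0.076 (adjusted p = 0.292, limma; 0.0465 by DESeq2, and 0.0465 to 0.579 over the alternatives). It shares exon bases with Smim27 on the opposite strand, whose own level was 7.05% of that of Ndufb6.

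Ndufa13, also known as GRIM-19, an accessory subunit of the proximal membrane arm, had 24596, 26378 and 28173 normalized counts in WT, 25062, 25595 and 23621 in Svil-KO and 23073, 22760 and 19040 in Svil-Mut. The Svil-Mut libraries were below all others, at -0.29 ± 0.087 (adjusted p = 0.330, limma). Ndufab1, which also serves mitochondrial fatty acid synthesis, had 7528, 7507 and 8697 in WT, 7897, 7440 and 8070 in Svil-KO and 6893, 6801 and 5717 in Svil-Mut, again with Svil-Mut below all others, at -0.29 ± 0.093 (adjusted p = 0.351, limma). The sequence copy Gm4459 had 10.7% of the level of Ndufab1. Ndufa4 had 36129, 37008 and 39853 in WT, 38539, 35304 and 35125 in Svil-KO and 35713, 36360 and 29816 in Svil-Mut, with overlap between all 3 genotypes and -0.15 ± 0.086 (adjusted p = 0.597, limma).

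Some accessory subunits were nearly level in Svil-Mut. Ndufa7, of the ubiquinone-reducing module, had 8216, 8787 and 9563 normalized counts in WT, 8387, 8320 and 8019 in Svil-KO and 8599, 8140 and 8931 in Svil-Mut. Its genotypes overlapped, its Svil-Mut replicate 4 was the highest of the Svil-Mut libraries where most subunits were lowest, and the log2 fold change was -0.05 ± 0.075 (adjusted p = 0.889, limma). Without WT replicate 4 it was 0.0091, and with the trends of transcript length and GC content removed 0.0022. The others near 0 were Ndufs5, a proximal arm subunit on the intermembrane space side, at -0.06 ± 0.075, Ndufb4 of the distal arm at -0.07 ± 0.072 and Ndufa12 of the NADH-oxidizing module at -0.09 ± 0.079. Without WT replicate 4 and Svil-Mut replicate 4, Ndufs5 was at 0.02 and Ndufa12 at 0.03. Ndufa12 has a near-identical pseudogene, Ndufa12-ps, at 44.2% of its level, which was itself at -0.25 in Svil-Mut. Reads may have been split between the pair, which was not tested.

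**Figure D4:**
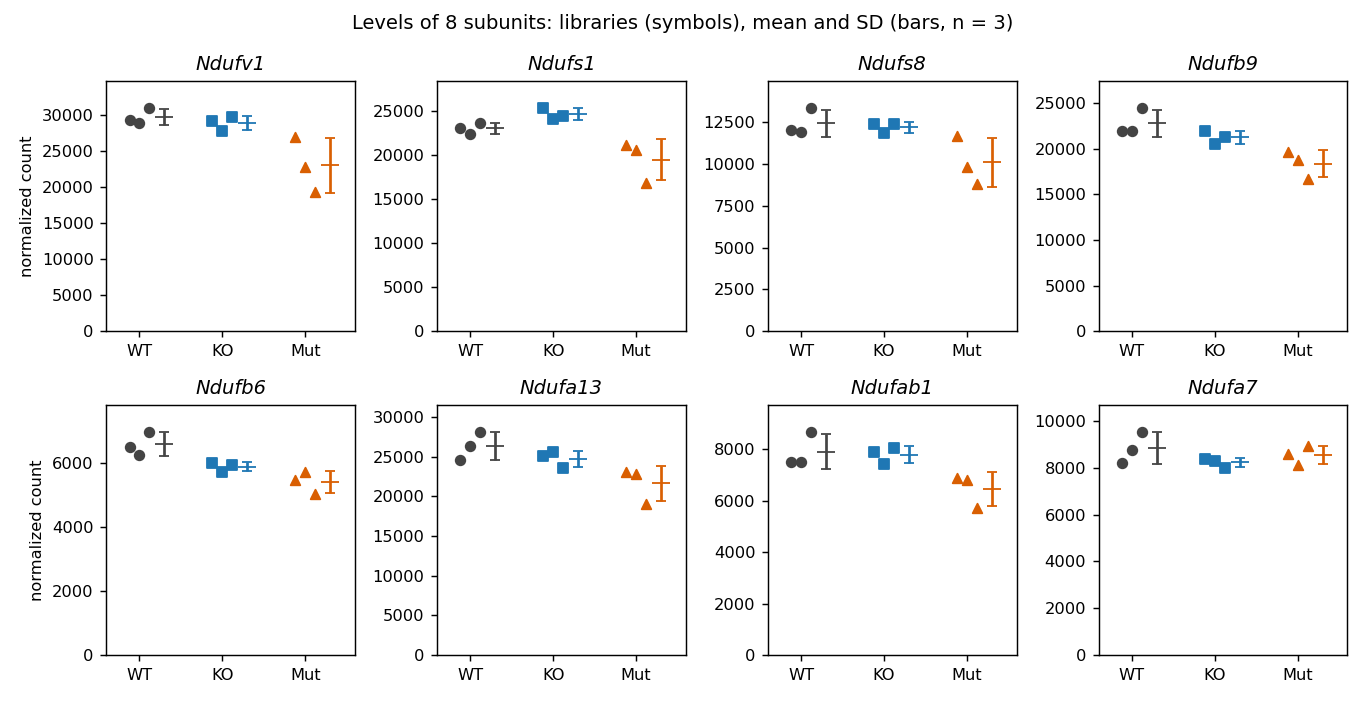
Normalized counts (y axis, from 0) of 8 subunits in each library (symbols), with mean and SD of 3 libraries (bars), for WT, Svil-KO (KO) and Svil-Mut (Mut). Ndufv1, Ndufs1, Ndufs8, Ndufb9, Ndufb6, Ndufa13 and Ndufab1 have all 3 Svil-Mut libraries below WT, and Ndufa7 does not.

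By module, the medians in Svil-Mut against WT were close to each other. In the NADH-oxidizing module all 8 subunits were below 0, with a median of -0.19, and 6 had no overlap. The ubiquinone-reducing module had 8 of 8 below 0, a median of -0.20 and 3 without overlap. For the proximal membrane arm these were 9 of 9, -0.20 and 5, and for the distal membrane arm 11 of 11, -0.24 and 8. The 7 catalytic core subunits had a median of -0.23, with 4 without overlap. Over all tested genes, 6.81% had Svil-Mut below WT without overlap. No test of a difference between modules was made.

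Set against the median of the 38 in the same library, which removes what all subunits share, the mean shift from WT to Svil-Mut ran from -0.16 for Ndufv1 to 0.17 for Ndufa7, and is described here without a test. Ndufs5 (0.16), Ndufb4 (0.14) and Ndufa12 (0.13) were next to Ndufa7 at the upper end, and Ndufb9 (-0.10) next to Ndufv1 at the lower end. In Svil-Mut replicate 1 Ndufv1 lay within 0.02 of the median of the subunits.

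Between Svil-KO and WT the subunits were close to level. Of 38, 34 had a log2 fold change below 0, where 49.4% of all tested genes did, but the median was -0.08, from -0.16 for Ndufb6 to 0.10 for Ndufs1. No subunit passed at an adjusted p of 0.05 by limma, edgeR or DESeq2 (0% of all tested genes by limma, lowest adjusted p of a subunit = 0.997), and at an unadjusted p under 0.05 there were 0 by limma, 0 by edgeR and 1 by DESeq2, against 4.11%, 3.84% and 4.43% of all tested genes. DESeq2 called 0.0262% of all tested genes at the adjusted threshold. The libraries did not overlap for 4 lower subunits, Ndufb6, Ndufv3, Ndufb11 and Ndufa12, and 1 higher, Ndufs1, where 5.45% of all tested genes were lower and 5.2% higher in this way. Without WT replicate 4 the median was -0.02 and 27 of 38 were below 0. With the trends of transcript length and GC content removed it was -0.03.

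The subunits with the smallest p in this comparison were Ndufb6, at -0.16 ± 0.076 (unadjusted p = 0.0587), Ndufa3 at -0.14 ± 0.075, Ndufv3 at -0.12 ± 0.073 and Ndufb4 at -0.11 ± 0.072, each with an adjusted p of 0.997 (limma). Ndufa3, a small proximal arm subunit, had 12836, 12392 and 14696 normalized counts in WT, 12406, 11614 and 12184 in Svil-KO and 11722, 11824 and 11647 in Svil-Mut. WT replicate 4 was far above the rest, and Svil-KO replicate 1 was above WT replicate 3, so Svil-KO and WT overlapped while Svil-Mut was below all WT libraries. Ndufv3 had 8788, 8874 and 9826 in WT, 8656, 8288 and 8282 in Svil-KO and 8440, 8252 and 7598 in Svil-Mut, with WT above both altered genotypes. Ndufb4 had 6703, 7092 and 7582 in WT, 6667, 6823 and 6297 in Svil-KO and 6866, 6857 and 6598 in Svil-Mut, which overlapped.

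Directly compared, Svil-KO was above Svil-Mut for 34 of 38 subunits, where 51.4% of all tested genes were above 0, with a median log2 difference of 0.14. No subunit passed at an adjusted p of 0.05 (limma, lowest adjusted p = 0.242; 0.0458% of all tested genes passed). By limma 10 were higher in Svil-KO at an unadjusted p under 0.05 (5.51% of all tested genes), by edgeR 9 had such a p (9.77%) and 0 passed the adjusted threshold. By DESeq2 11 had such a p (10.8%) and 1 passed, where 1.39% of all tested genes passed. For 18 subunits all Svil-KO libraries were above all Svil-Mut libraries (7.55% of all tested genes). Without Svil-Mut replicate 4, 2 subunits had an unadjusted p under 0.05, without Svil-KO replicate 1 or 4, 5, and without Svil-Mut replicate 1, 18. With the replicate numbers as a block it was 5. In the main fit 10.2% of all tested genes had such a p in either direction (limma), and their share under these settings is not given here.

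In this comparison Ndufs1 had the smallest p, at 0.35 ± 0.086 (adjusted p = 0.242 by limma, 0.0271 by DESeq2, 0.0271 to 0.613 over the alternatives). It was followed by Ndufv1 at 0.34 ± 0.10, Ndufab1 at 0.27 ± 0.093 and Ndufs8 at 0.28 ± 0.099, with adjusted p of 0.324, 0.371 and 0.386 (limma). Each of these 4 had its 3 Svil-KO libraries above its 3 Svil-Mut libraries. The 4 subunits that were below 0 here were Ndufa7, Ndufb4, Ndufs5 and Ndufa12, the same 4 that had the log2 fold changes nearest to 0 in Svil-Mut against WT, and both comparisons use the Svil-Mut libraries.

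The spread of the subunits within a genotype was small next to that of other genes. The median coefficient of variation of the subunits was 3.29% in Svil-KO, 6.67% in WT and 9.15% in Svil-Mut, against 15.3%, 16.1% and 18.3% over all tested genes. In Svil-Mut it ran from 0.758% for Ndufa3 to 16.5% for Ndufv1.

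The 7 complex I genes of the mitochondrial genome encode the membrane-bound core. All were below 0 in Svil-Mut against WT, where 50.7% of all tested genes were, with a median of -0.47. By limma and by edgeR 0 of the mt-Nd genes passed at an adjusted p of 0.05 (0.0393% of all tested genes by each). At an unadjusted p under 0.05 there were 6 by each. Of all tested genes, 5.32% were lower at such a p by limma, and 9.62% had it in either direction by edgeR. DESeq2 called 4 at the adjusted threshold, where it called 1.13% of all tested genes. mt-Nd1 had 343571, 307819 and 381268 normalized counts in WT, 362751, 332539 and 381677 in Svil-KO and 278947, 289872 and 206110 in Svil-Mut. mt-Nd5 had 259310, 233053 and 273265 in WT, 274623, 253591 and 298266 in Svil-KO and 201508, 198740 and 141318 in Svil-Mut. In both, the Svil-Mut libraries were below all others and replicate 4 was the lowest.

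The log2 fold changes were -0.43 ± 0.13 for mt-Nd1, -0.51 ± 0.12 for mt-Nd2, -0.47 ± 0.11 for mt-Nd4, -0.51 ± 0.13 for mt-Nd5 and -0.46 ± 0.12 for mt-Nd6, with adjusted p from 0.266 to 0.336 (limma). mt-Nd3, at 25 to 88 normalized counts, was at -1.06 ± 0.44, and mt-Nd4l, at 5 to 16, was at -0.03 ± 0.68. In Svil-KO the median of the 7 was 0.07. RNA was primed at poly(A), and mitochondrial genes as a whole had a smaller share of reads in Svil-Mut, 3.93% to 5.03%, than in WT, 5.32% to 6.51%. How far the yield of mitochondrial RNA plays a part in these values was not tested.

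Assembly factors, which build the complex but leave it when finished, had values nearer to 0. Of 19 tested, 16 were below 0 in Svil-Mut, where 50.7% of all tested genes were, with a median of -0.10. At an unadjusted p under 0.05, 1 was lower and 1 higher (limma). This was near the share of all tested genes, 813 lower and 720 higher of 15279. At an adjusted p of 0.05, 0 passed by limma, edgeR or DESeq2 (0.0393%, 0.0393% and 1.13% of all tested genes did). Ndufaf7, a methyltransferase, was at -0.28 ± 0.11, and Timmdc1, a membrane arm assembly factor, at 0.32 ± 0.14 (adjusted p = 0.445 and 0.497, limma).

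The other complexes of the chain had medians of similar size in Svil-Mut. All 4 subunits of complex II were below 0 (median -0.19), as were all 9 nuclear subunits of complex III (-0.26), all 13 of complex IV (-0.22) and all 15 of ATP synthase (-0.19). By limma 0 of these passed at an adjusted p of 0.05 (0.0393% of all tested genes did). At an unadjusted p under 0.05, 3, 8, 8 and 9 were lower in this order, against 5.32% of all tested genes lower. DESeq2 called 2 in complex III and 1 in complex IV (1.13% of all tested genes), and edgeR called 0 (0.0393%). The complex I median of -0.21 stood between these, and no test of the difference was made. Mitochondrial genes outside the chain, such as Cs, the citrate synthase of the citric acid cycle, had a median of -0.03 over 12 genes, with Cs at -0.20 ± 0.087. Among 14 regulators the median was -0.01, with 8 below 0 and 6 above. At an unadjusted p under 0.05, 2 were lower and 0 higher (limma), against 5.32% of all tested genes lower. These were Esrrg and Esrra, the estrogen-related receptors that activate respiratory genes, at -0.61 ± 0.21 and -0.32 ± 0.12 (adjusted p = 0.398 and 0.402, limma). Ppard was next by p, at 0.45 ± 0.33 (adjusted p = 0.699, limma). The part of these regulators in the complex I values was not tested.

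**Figure D5:**
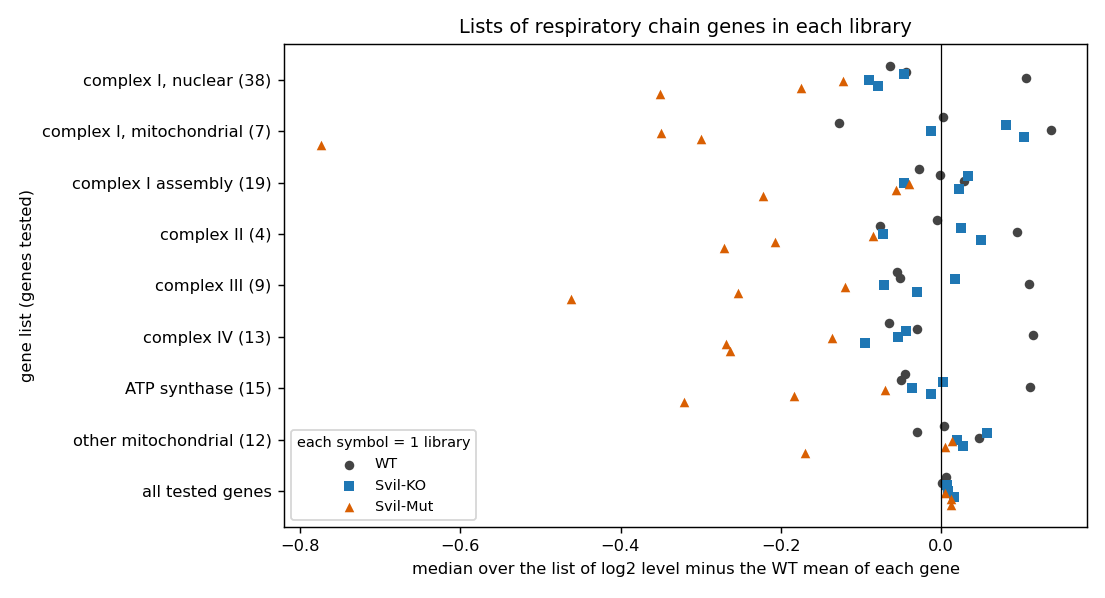
Median over each gene list of the log2 level minus the WT mean of each gene (x axis), 1 symbol per library. The Svil-Mut libraries are the lowest 3 in complexes I to IV and ATP synthase, and all tested genes stay near 0 in every library.

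Marker lists of fibre types, fat, blood and early response genes had values away from 0 too. In Svil-Mut all 10 markers of slow and oxidative fibres were below 0 (median -0.99), among them Mb, the oxygen-binding myoglobin, at -1.06 ± 0.21, and their summed level was 43231 to 81669 normalized counts against 112974 to 164915 in WT. By library the median of this list was -0.49, -2.76 and -0.22 in Svil-Mut replicates 1, 2 and 4. That of the complex I subunits was -0.12, -0.18 and -0.35 in the same libraries. Of 10 fast fibre markers, 8 were above 0 (median 0.12), with Actn3 the highest at 0.42 ± 0.13, and 2 were below 0. Myh1, a fast myosin, was the lowest of the 10 at -0.73 ± 0.34. The summed level of the 10 was 6690920 to 7446470 normalized counts against 5899150 to 6394490 in WT. Of 7 adipocyte markers tested, 6 were below 0 (median -1.53), among them Cidec at -4.36 ± 1.38. At an unadjusted p under 0.05, 4 were lower (limma), against 5.32% of all tested genes. The adipocyte markers had a summed level of 6983 to 10358 against 9501 to 11270 in WT, ranges that overlap. Ucp1, also on that list, was at 0 in all libraries. Red blood cell genes had medians of 0.29, 1.42 and 3.25 in the same 3 libraries, and summed to 6559 to 49363 normalized counts against 4431 to 8147 in WT, with no marker at 0. Immediate early genes, which respond quickly to stimulation, had all 8 members above 0 in Svil-Mut (median 2.74). At an adjusted p of 0.05, 2 of them passed (limma), where 0.0393% of all tested genes passed. Other lists had 6 markers each. Their medians in Svil-Mut were -0.24 for fibro-adipogenic cells (6 below 0), -0.48 for satellite cells (4), -0.28 for macrophages (4) and -0.01 for endothelial cells (3). At an unadjusted p under 0.05, 2 satellite cell markers were lower (limma), against 5.32% of all tested genes. The part of fibre type, fat, blood, these other cell types or the early genes in the complex I values was not tested.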

How the data were processed

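Poly(A)-primed full-length cDNA from 9 mice was amplified and tagmented, per the labels' protocols. HISAT2, featureCounts, DESeq2 and build mm10 are named, per the submitters' processing notes. Tool versions and the gene annotation: not given in the sources used here. Values in the authors' deposited table are a signal, reads per gene over a size factor of the library, since 99.99% to 100% of nonzero values were whole multiples of 1 step per library (within 0.001), which gave back whole reads. Genes with at least 10 normalized counts in 3 or more libraries were tested.

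A limma fit (version 3.58.1, R 4.3.3, variance trend) of log2(normalized count + 1) over all 9 libraries gave log2 fold changes, SEs and p-values, adjusted by Benjamini-Hochberg over 15279 genes. Fold changes of low genes are understated on this scale. edgeR 4.0.16 and DESeq2 1.42.0 were run on the recovered reads as alternatives, and the fit was tested on simulated data. Normalized counts per kilobase used the principal transcript of GENCODE (GRCm38), and near-identical copies were those with at least 95% identity over 100 bases or more.

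The members and gene lists were chosen with earlier results of these data known. Values in every library were given for the core subunits, except 1 that is not reported here by itself, the 4 subunits with the smallest p and those with the lowest and highest fold change in each comparison, the extremes per length, Ndufa4 and Ndufab1. The subunits with YY1 or NRF1 letters were named after their values were seen, as were Ndufs5, Ndufb4 and Ndufa12 in Svil-Mut. Same-numbered libraries of Svil-KO and WT, Svil-Mut and WT, and Svil-KO and Svil-Mut were compared. Each Svil-KO library correlated best with the WT library of its own number, weakly, at 0.03 to 0.04. In the 2 comparisons with Svil-Mut the numbers did not pair the libraries, so the main fit has no pairing. Alternatives changed the pseudocount, filter, scaling, variance model, libraries, replicate block, and length and GC trends. Depth was 36234428 to 48762188 reads, and all 38 subunits passed the filter.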

Additional observations from a re-analysis of the deposited data

Results flagged for a closer look

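Ndufs1 stood out because every Svil-KO library was above the WT mean, by 0.06 to 0.14 on the log2 scale, while every Svil-Mut library was below it, by a log2 deviation of -0.46 to -0.12. The log2 difference between Svil-KO and Svil-Mut was 0.35, higher in 3 of 3 Svil-KO libraries, with an unadjusted p of 0.00217 and an adjusted p of 0.242 (limma, Benjamini-Hochberg over all tested genes). With 38 subunits looked at, 1 such pattern was found.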

How the results depend on the processing

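The median of the 38 subunits kept its sign in all 3 comparisons under all 27 alternatives. Against WT it ran from -0.27 to -0.10 in Svil-Mut and from -0.11 to -0.02 in Svil-KO, and for Svil-KO against Svil-Mut from 0.09 to 0.21. Counts of subunits at an unadjusted p under 0.05 moved more. Svil-Mut against WT had 27, 10 without the variance trend, 6 at a threshold of 0.01, 9 to 27 with 1 library left out, and 3 (median -0.10) without WT replicate 4 and Svil-Mut replicate 4, which was chosen after seeing the data. DESeq2 called 2 subunits there. Svil-KO against WT had 0, 1 with equal totals, with totals without mitochondrial and top 10 genes, with library weights, with only the 2 genotypes compared or with DESeq2, 2 with quantile normalization, and 0 to 2 with 1 library left out. Svil-KO against Svil-Mut had 10, 16 with equal totals, 3 without the variance trend or without both replicates 4, 5 with library weights, 6 with only the 2 genotypes, 2 at 0.01, and 2 to 18 with 1 library left out, and DESeq2 called 1. The sign turned for Ndufa7 in Svil-Mut against WT with length and GC trends removed (0.0022), the same with a replicate block (0.0059) and without WT replicate 4 (0.0091), and without both replicates 4 for Ndufs3 (0.0048; from -0.18 to 0.0048 with libraries left out), Ndufs5 (0.02) and Ndufa12 (0.03). No other subunit turned in that comparison under the alternatives run. In Svil-KO against WT, 11 subunits turned sign in at least 1 alternative, over 13 alternatives. In Svil-KO against Svil-Mut, 5 did, over 10 alternatives. Ndufs5, Ndufa12 and Ndufb4 turned above 0 there, and Ndufb1 and Ndufs3 below 0. The cause of these moves was not tested.

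Same-numbered libraries of Svil-KO and WT had deviations correlated at 0.03, 0.04 and 0.04, and each Svil-KO library correlated best with its own number. For Svil-Mut and WT the correlations were 0.01 and -0.06, and for Svil-KO and Svil-Mut -0.02 and -0.02, so the numbers were not taken to pair mice. With the replicate number as a block, the subunits at an unadjusted p under 0.05 were 0 for Svil-KO against WT, 19 for Svil-Mut against WT (median -0.24) and 5 for Svil-KO against Svil-Mut. With 3 mice per genotype, differences of the size seen here fell short of the adjusted threshold in the limma fit.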
